A study of Homo sapiens with 2 samples.

Results

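The genes of fibroblast growth factor (FGF) signalling were examined in SF-539 cells, an established human glioblastoma cell line, with or without knockdown of FKBP9. The set held 10 genes of the 58735 in the deposited table, namely the 6 FGF genes FGF1, FGF2, FGF5, FGF7, FGF11 and FGF18 and the 4 receptor genes FGFR1, FGFR2, FGFR3 and FGFR4. They were found by their gene symbols, and they were selected on the measured values of these same libraries: FGF1 and FGF2 are on the study's list of raised transcripts tied to ER stress, and FGF1, FGF2 and FGF5 are on its wider list of changed transcripts. What follows for these 3 genes is therefore a description. The other members were named with earlier results of these data known.

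Both cell populations came from SF-539 cells infected with pGIPZ lentivirus and selected with puromycin. The shControl cells carried a control shRNA and the shFKBP9 cells an shRNA against FKBP9, and the sources used here do not say which of the study's hairpins was sequenced. RNA-Seq was made from 1 library per condition. A change due to the loss of FKBP9, an effect of the hairpin on other transcripts, the selection of the clones and the variation between cultures therefore cannot be told apart. No test between the conditions was possible, and all intervals below are 95% intervals for counting error only, exact unless stated otherwise.

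FGFs are signalling proteins that bind receptor tyrosine kinases at the cell surface, and most of them need heparan sulphate chains for stable binding. The activated receptor recruits the adaptor FRS2 and turns on RAS and the ERK kinases, whose output is limited by Sprouty proteins and dual-specificity phosphatases. FGF2 is known as a growth factor of glioma and endothelial cells, and FGFR1 is a receptor found in many gliomas.

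In the deposited table the level of a gene is given as FPKM, that is, fragments scaled by gene length and by the size of the library. The number of fragments behind each value could be recovered, and it summed to 18116873 in shControl and 17158514 in shFKBP9. One fragment on a gene of 1 kilobase was worth 0.0552 and 0.0582 FPKM. FKBP9, the gene targeted by the hairpin, was measured at 49.8 FPKM with the control hairpin and 4.68 FPKM with the other, so that 9.39% remained. The label calls the cells epithelial glioma cells, but only 1 of 9 epithelial markers (KRT8) reached 1 FPKM, and CDH1 had 0 and 1 fragments. Of 11 astrocyte and glioma markers 5 reached that level (VIM, CD44, CHI3L1, SLC1A3 and NES), while GFAP was at 0.196 and 0.139 FPKM and AQP4 at 0. Of 9 mesenchymal markers 7 reached it, with COL1A1 at 837 and 884 FPKM, while COL3A1 and THY1 did not.

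Of the 10 members, 3 ligand genes (FGF2, FGF5 and FGF1) had about 2 times as many fragments in shFKBP9 as in shControl, and FGFR1, the one abundant receptor gene, stood at 38.1 FPKM in the one and 37.6 in the other library. The other 6 had between 0 and 5 fragments in each library, which is too few to tell the libraries apart. In a bulk library, more cells with a transcript and more transcript per cell cannot be told apart.

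FGF2, basic fibroblast growth factor, was the most abundant ligand of the set. Its level was 2.17 FPKM in shControl, from 266 fragments, and 4.31 FPKM in shFKBP9, from 501 fragments. The ratio of the FPKM values was 1.99 (interval 1.71 to 2.31). The intervals of the levels, 1.92 to 2.45 FPKM and 3.94 to 4.70 FPKM, did not overlap. FGF2 (ENSG00000138685) spans chr4:122826708-122898236 of hg38 on the plus strand, with 3 exons in the canonical transcript of GENCODE release 44. NUDT6, on the opposite strand, overlaps the gene over 9540 bases, of which 804 are exonic in both genes. Whether the counting used strand is not given in the sources used here, so fragments of this stretch cannot be assigned with certainty. NUDT6 itself had 85 and 82 fragments, and with these added to FGF2 the sums were 351 and 583.

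FGF5, a secreted FGF known as a brake on hair growth, stood at 0.433 FPKM in shControl, from 47 fragments, and at 0.952 FPKM in shFKBP9, from 98. The ratio was 2.20 (interval 1.54 to 3.18). FGF1, acidic fibroblast growth factor, which can bind all of the FGF receptors and like FGF2 lacks a signal peptide, had 36 fragments in shControl and 77 in shFKBP9. These gave 0.377 and 0.850 FPKM and a ratio of 2.26 (interval 1.5 to 3.45). Both genes were thus under 1 FPKM in both libraries. FGF5 (ENSG00000138675) spans chr4:80266599-80336680 on the plus strand, with 3 exons, and FGF1 (ENSG00000113578) spans chr5:142592178-142698070 on the minus strand, with 4. FGF5 shares 136 exonic bases with CFAP299, which had 2 fragments in each library, and FGF1 shares 0 exonic bases with SPRY4-AS1, which runs across it on the other strand and had 2 and 7 fragments.

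The ratios of the 3 ligands could not be told from each other. On the log2 scale and with nothing added, the difference of FGF1 to FGF2 was 0.18 (interval -0.43 to 0.79) and that of FGF5 to FGF2 was 0.15 (interval -0.40 to 0.69). The difference of FGF1 to FGF5 was 0.04 (interval -0.72 to 0.80). These intervals are normal approximations from the fragments.

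**Figure D1:**
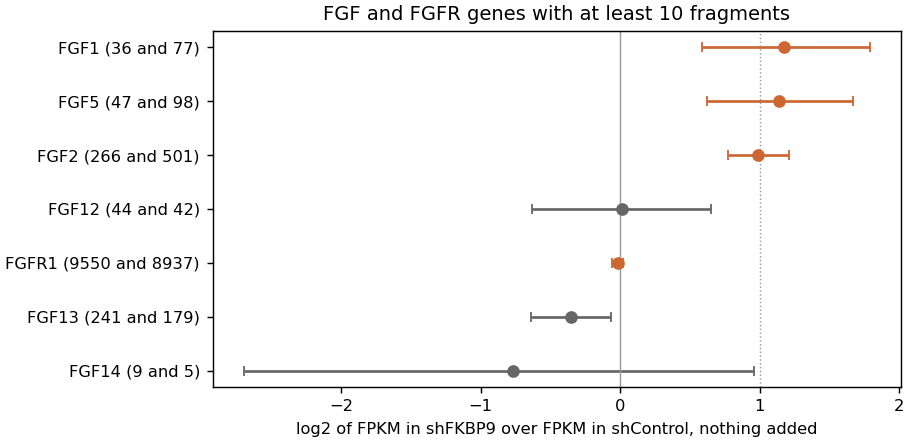
Log2 ratio of the shFKBP9 over the shControl FPKM value, nothing added, for the FGF and FGFR genes that had at least 10 fragments in the 2 libraries together. Bars are exact 95% intervals for counting error, the fragments in shControl and shFKBP9 stand in brackets, members are orange and other FGF genes grey, and the dotted line marks 2-fold. FGF1, FGF5 and FGF2 lie near that line, with intervals above 0, and FGFR1 lies at 0.

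The bases before 1 annotated start of each of these 3 genes are shown as the context of the ligand genes with enough fragments. Which start the cells used was not measured. They were taken from RefSeq on GRCh38.p14, are written from 5′ to 3′ on the strand of the gene, and end at the latest at the last base that neither the deposited table nor GENCODE counts as transcribed. Capitals mark the dinucleotide CG. They are 250 bases at chr5:142698071-142698320 (minus strand) for FGF1, 101 bases at chr4:122826581-122826681 (plus strand) for FGF2 and 250 bases at chr4:80266338-80266587 (plus strand) for FGF5.
FGF1: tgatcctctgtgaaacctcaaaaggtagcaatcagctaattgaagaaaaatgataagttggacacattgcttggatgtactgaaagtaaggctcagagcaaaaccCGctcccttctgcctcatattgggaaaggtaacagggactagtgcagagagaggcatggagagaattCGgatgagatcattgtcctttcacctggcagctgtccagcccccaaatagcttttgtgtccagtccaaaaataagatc
FGF2: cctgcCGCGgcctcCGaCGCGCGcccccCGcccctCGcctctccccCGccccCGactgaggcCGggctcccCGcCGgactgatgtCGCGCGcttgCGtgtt
FGF5: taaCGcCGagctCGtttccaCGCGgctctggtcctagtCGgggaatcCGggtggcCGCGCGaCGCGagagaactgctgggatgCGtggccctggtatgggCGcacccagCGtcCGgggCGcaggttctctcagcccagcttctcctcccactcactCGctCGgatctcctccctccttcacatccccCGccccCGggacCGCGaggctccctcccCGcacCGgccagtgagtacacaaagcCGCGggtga

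The stretch of FGF1 held 2 CG dinucleotides and had a GC content of 44.8%. That of FGF5 held 27 at 68.8% GC, and that of FGF2 held 17 in its 101 bases at 80.2% GC. The RefSeq windows, which run from 250 bases before to 50 bases after a start, numbered 20 for 9 of the 10 members (FGFR1 was not matched), 4 of them for FGF1, 2 for FGF5 and 1 for FGF2. Over these windows FGF1 ranged from 44.3% to 60% GC with 2 to 8 CG, and FGF5 from 50.3% to 67% with 6 to 31, so that the ranges of these genes overlapped. The window of FGF2 had 74.7% GC and 41 CG. They were searched on both strands for 5 short elements. The amino acid response element TGATGNAAT was found in 0 of the 20 windows and in 0.991% of all 35116 windows, the XBP1s element TGACGTGG in 0 and in 0.729%, and the cyclic AMP element TGACGTCA in 0 and in 1.85%. The AP-1 letters TGANTCA were in 2 member windows, 1 of FGF1 at position -41 and 1 of FGF11 at -1, counted from 0 at the start, and in 7.71% of all windows. TATAAA was in 1 window, that of the second FGF5 start, at -213 on the strand of the gene, and in 11.5% of all. At the FGF5 start the match and its reverse complement overlap, and no other match overlapped. Such matches describe the letters only.

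The other ligands of the set were scarcely seen. FGF7, keratinocyte growth factor, had 1 fragment in shControl and 2 in shFKBP9, and its 8 pseudogene copies together had 3 and 5. FGF18, a bone and cartilage factor, had 3 fragments in each library, or 0.083 and 0.088 FPKM. FGF11 had 5 and 2 fragments. It belongs to the FGF homologous factors, which stay inside the cell and bind sodium channels, so it is a ligand by family name only. Of its exonic bases in GENCODE, 4169 of 5080 are shared with AC113189.4 and 1420 with AC113189.2, which lie on the same strand and had 0 fragments, so fragments there may not have been assigned to a gene and the low count may not give its level. For FGF7, FGF18 and FGF11 a difference was not detectable from these fragments.

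Among the receptors, FGFR1 was the only one with more than 3 fragments in a library. Its 9550 shControl and 8937 shFKBP9 fragments gave a ratio of FPKM values of 0.987 (interval 0.959 to 1.02). On the log2 scale the ratio of FGF2 exceeded that of FGFR1 by 1.01 (normal-approximation interval 0.79 to 1.23). On the other strand, 2 genes share exonic bases with it, LETM2 (113 and 79 fragments) and AC087623.1 (28 and 26). FGFR2 and FGFR4 had 0 fragments in both libraries, for which the limit taken here for a count of 0, the level of 3 fragments, was 0.0219 and 0.0343 FPKM in shControl. The exact 95% upper limits were 0.0269 and 0.0422 FPKM. FGFR3 had 0 fragments in shControl, with limits of 0.0342 and 0.0420 FPKM by the same reckonings, and 3 in shFKBP9, or 0.0360 FPKM. FGFR1 held 100% of the receptor fragments in shControl (interval 99.96% to 100%) and 99.97% in shFKBP9 (interval 99.9% to 99.99%). FPKM per gene does not separate the receptor isoforms that differ in an immunoglobulin domain, which bind different ligands. ESRP1 and ESRP2, the epithelial splicing factors that favour the IIIb form, had 2 and 6 and 17 and 15 fragments, whereas PTBP1, one of the factors acting on the same exons, stood at 87.6 and 81.1 FPKM. Of 7 such splice regulators, 4 reached 1 FPKM, 1 higher and 3 lower in shFKBP9, with a median log2 ratio of -0.07. FPKM of FGFR1 was computed by the authors on a gene length of 13842 bases, and a shorter transcript model would give a higher value.

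**Figure D2:**
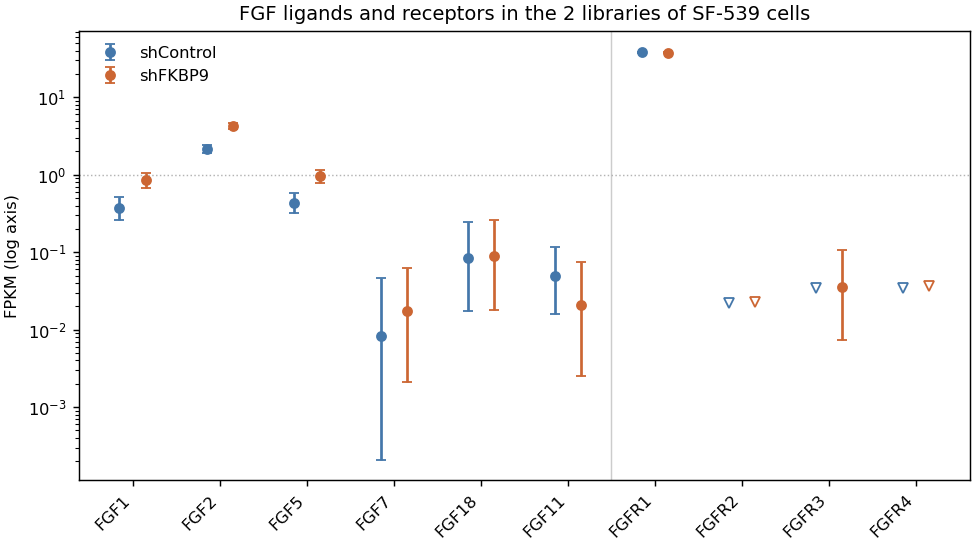
FPKM of the 10 members in the shControl (blue) and shFKBP9 (orange) libraries, on a log axis. Bars are exact 95% Poisson intervals of the fragments, open triangles stand for genes with 0 fragments and are placed at the level of 3 fragments, the vertical line separates ligands from receptors, and the dotted line is at 1 FPKM. FGFR1 at 38.1 and 37.6 FPKM lies far above FGF2 at 2.17 and 4.31.

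By level, the order in shControl was FGFR1, FGF2, FGF5, FGF1, FGF18, FGF11 and FGF7. In shFKBP9 it was FGFR1, FGF2, FGF5, FGF1, FGF18, FGFR3, FGF11 and FGF7. The intervals of FGF5 and FGF1 overlapped in both libraries (0.318 to 0.575 and 0.264 to 0.522 FPKM in shControl), and so did those of neighbours from FGF18 downwards.

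None of the members passed the 2-fold rule used for all genes. That rule asked for at least 1 FPKM in either library and a log2 ratio, with 0.1 added to both FPKM values, above 1 or below -1. Only 2 members reached 1 FPKM, FGF2 with a log2 ratio of 0.96 and FGFR1 with -0.02, and 0 of them were past it, against 2.02% of 12741 genes on the higher side and 2.19% on the lower side. Among protein-coding genes alone these shares were 0.213% and 0.193%. FGF1 and FGF5 had log2 ratios of 0.99 and 0.98 on this scale, but did not reach the minimum. With nothing added and at least 100 fragments together, FGF1 and FGF5 were past 2-fold, 2 of the 4 members of that depth, and so were 0.195% of 11775 genes on the higher side. Because these members were selected on this ratio, nothing follows from the difference between the shares.

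The interval of the ratio lay above 0 for 3 of the 4 members with at least 10 fragments and below 0 for none of them. Over all genes of that depth it lay above 0 for 13.8% and below 0 for 16.9%. The median log2 ratio was 0.28 over the 8 members with a fragment and -0.00 over all genes with one. The 3 members with an interval above 0 were FGF1, FGF2 and FGF5, which were selected on these same values. Nothing therefore follows from either difference to all genes.

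**Figure D3:**
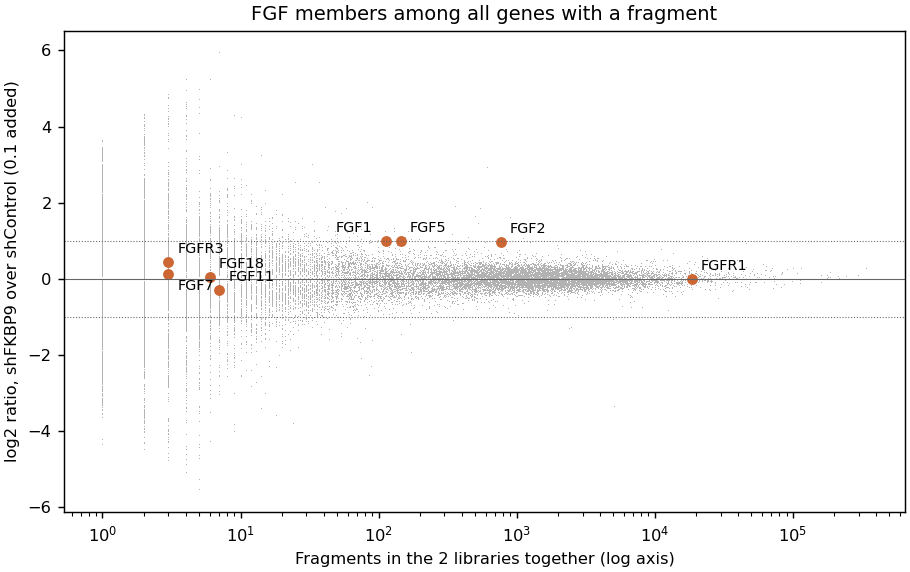
Log2 ratio of the shFKBP9 over the shControl FPKM value, each plus 0.1, against the fragments in the 2 libraries together (log axis), for all genes with a fragment (grey) and the 8 members with one (orange). Dotted lines mark 2-fold. FGF1, FGF5 and FGF2 lie just under the upper line, and FGF7, FGF11, FGF18 and FGFR3 lie among genes with few fragments, whose ratios scatter widely.

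The 16 FGF genes outside the set were scarce. Of these, 9 had 0 fragments in both libraries, and 3 had at least 10 fragments in the 2 libraries together. FGF13, an FGF homologous factor, had 241 and 179 fragments (0.644 and 0.504 FPKM), a ratio whose log2 value was -0.35 (interval -0.64 to -0.07). FGF12, another one, had 44 and 42 fragments, and FGF14 had 9 and 5. The remaining 4 genes (FGF9, FGF17, FGF20 and FGF22) had at most 4 fragments in a library.

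Summed over all 22 FGF genes, the level was 4.27 FPKM in shControl and 7.21 in shFKBP9. The 18 secreted FGFs made up 3.21 and 6.33 FPKM of this, a ratio of 1.97, and the 4 homologous factors FGF11 to FGF14 made up 1.06 and 0.879 FPKM, a ratio of 0.829. The secreted sum restates the 3 selected genes, since FGF1, FGF2 and FGF5 together gave 2.98 and 6.11 FPKM of it, and the other 15 secreted FGFs gave 0.237 and 0.220 FPKM from 10 and 11 fragments. FGF2 held 50.7% of the summed FPKM in shControl and 59.8% in shFKBP9. Its share of the fragments was 40.4% (exact binomial interval 36.7% to 44.3%) and 54.8% (51.5% to 58.0%). FGF5 held 10.1% and 13.2% of the FPKM, FGF1 8.82% and 11.8%, and FGF13 15.1% and 6.99%. The FPKM of FGFR1 was 8.91 times the summed FPKM of the FGF genes in shControl and 5.22 times in shFKBP9.

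**Figure D4:**
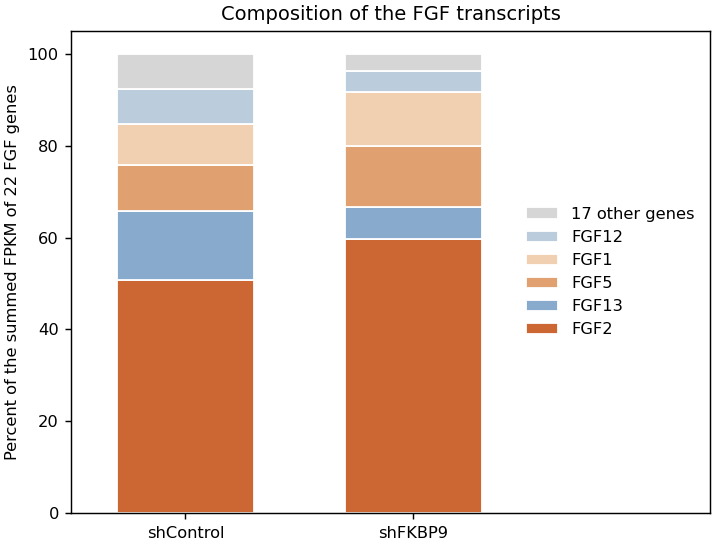
Share of each FGF gene in the summed FPKM of the 22 FGF genes, as stacked bars that add to 100% for each library. FGF2 goes from 50.7% to 59.8% of the total and the FGF homologous factor FGF13 (blue) goes from 15.1% to 6.99%.

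Genes that act with the FGFs were taken from lists written from general knowledge, and 0 genes of any of these lists were past 2-fold. As 0.213% of all protein-coding genes were past it on the higher side and 0.193% on the lower side, a count of 0 in lists of this size is not a result about them. Of 13 co-receptors and binding proteins, 5 reached 1 FPKM. FGFRL1, a receptor without a kinase domain, was at 16.4 FPKM in shControl and 12.5 FPKM in shFKBP9, a log2 ratio of -0.38, and GLG1, a Golgi protein that binds FGFs, was at 38.9 and 34.6 (-0.17). FLRT2 and FIBP had log2 ratios of 0.10 and 0.03. KLB, the co-receptor of the endocrine FGFs, had 1 and 7 fragments, and KL had 0 in both libraries.

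FGF1 and FGF2 leave the cell without passing through the ER and the Golgi. Of 8 genes of this route, 6 reached 1 FPKM, with a median log2 ratio of 0.00. SPHK1, a sphingosine kinase tied to FGF1 release, was at 13.1 and 15.7 FPKM (0.26), and S100A10 and S100A11 had log2 ratios of 0.04 and -0.03.

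Of 14 listed core proteins that carry heparan sulphate, 9 reached 1 FPKM, 4 of them higher and 5 lower in shFKBP9. By the higher of the 2 values, the most abundant were the syndecan genes SDC4, at 76.8 and 84.9 FPKM, and SDC1, at 43.2 and 47.3 FPKM (AGRN was above SDC1 in shControl, at 44.3 FPKM), with log2 ratios of 0.14 and 0.13. GPC6, a glypican, had a log2 ratio of 0.33, GPC1, the glypican known to aid FGF2, -0.23, and HSPG2, the basement membrane proteoglycan perlecan, -0.38. Of the 21 genes for making, sulphating or trimming the chains, 11 reached 1 FPKM, 6 higher and 5 lower, with a median of 0.01. HS3ST3A1, a 3-O-sulphotransferase, was the most abundant at 76.8 and 87.1 FPKM (0.18), followed by NDST1 (-0.07). EXTL2 and HS2ST1 were at 0.23 and 0.19, and HPSE and EXT1 at -0.18 and -0.12.

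Downstream of the receptor, all 26 genes listed for signalling reached 1 FPKM, 13 higher and 13 lower, with a median log2 ratio of -0.02. FRS2, the docking protein of FGF receptors, was at 2.36 FPKM in shControl and 2.88 FPKM in shFKBP9 (0.28). MAPK3, which encodes ERK1, and PLCG1, a direct substrate of FGF receptors, were both at -0.31. SHC1 and MAP2K2, the most abundant, were at 0.06 and -0.06.

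Among 16 feedback inhibitors, 13 reached 1 FPKM, with 7 higher and 6 lower and a median log2 ratio of 0.02. SPRY2, a Sprouty protein, was at 9.31 FPKM in shControl and 11.8 FPKM in shFKBP9 (0.34), and SPRED1, a relative of it that restrains RAS, was at 6.55 and 8.24 (0.33). CBL, a ubiquitin ligase, and LRIG3 were at -0.23 and -0.15. DUSP6, the ERK phosphatase often read as a sign of FGF signalling, was at 3.59 and 3.31 FPKM (-0.11). The most abundant, PHLDA1 and LRIG1, were at 0.05 and 0.02.

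The 12 transcriptional targets all reached 1 FPKM, 5 higher and 7 lower, with a median of -0.04. ETV1 was at 5.47 FPKM in shControl and 7.70 FPKM in shFKBP9 (0.48), ETV4 at 7.87 and 7.02 (-0.16) and ETV5 at 4.25 and 4.50 (0.08). These are related ERK-responsive factors, and the intervals of ETV4 and ETV5 included 0. CCND1, which encodes cyclin D1, had a log2 ratio of 0.44. For the protein, the study reported the other direction, less cyclin D1 after FKBP9 knockdown in SF-539 cells. The immediate early genes FOS, at 1.13 and 0.720 FPKM, and EGR1, at 11.8 and 8.95 FPKM, had log2 ratios of -0.58 and -0.40. IER3 and FOSL1, the most abundant, were at -0.01 and 0.18.

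Other growth factors and receptors were compared with the FGF genes by their counts alone. Of 26 ligands of other families, 16 reached 1 FPKM, 13 higher and 3 lower in shFKBP9. Over all 12741 genes at that level, 5951 were higher and 6789 lower. The median log2 ratio was 0.22 for these ligands and -0.02 over all genes at that level. The list was written with earlier results of these data known, and the difference was not tested. GAS6, the ligand of the receptor AXL, came closest to FGF2, at 1.90 FPKM in shControl and 3.72 FPKM in shFKBP9 (0.93), followed by HBEGF, an EGF receptor ligand, at 4.01 and 6.39 (0.66). EREG and ANGPT1 were at -0.42 and -0.08, and the most abundant ligands, VEGFA and PTN, at 0.13 and 0.17. Of 26 other receptor tyrosine kinases, 13 reached 1 FPKM, 6 higher and 7 lower, with a median of -0.01. AXL, at 60.4 and 61.8 FPKM, was the only one above FGFR1 in level, and MET, at 30.3 and 30.1 FPKM, came next below it. DDR2 and CSF1R were at 0.39 and 0.22, and PDGFRA and ERBB2 at -0.54 and -0.41.

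Markers of other cells were low in both libraries. The 9 epithelial markers summed to 2.20 and 2.69 FPKM, and of these KRT14 had 1 and 24 fragments and KRT5 8 and 17. The 5 endothelial markers summed to 3.26 and 2.93 FPKM and the 7 blood and microglia markers to 0.819 and 1.04 FPKM, with PTPRC, AIF1 and CD3E at 0 fragments. Within the cells' own markers, CHI3L1 was at 9.89 and 19.3 FPKM (log2 ratio 0.96), the 11 astrocyte and glioma markers summed to 347 and 382 FPKM, and the mesenchymal list summed to 1668 and 1791 FPKM, with 7 of its 7 genes at 1 FPKM higher in shFKBP9, as were 5951 of all 12741 genes at that level. Among these were TAGLN, at 11.9 and 18.5 FPKM (0.63), and ACTA2, at 34.0 and 50.4 FPKM (0.56), both smooth muscle and myofibroblast genes, and FN1, whose log2 ratio of 0.01 had an interval that included 0. The part of these differences in the values of FGF1, FGF2 and FGF5 was not tested.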

How the data were processed

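RNA of both cell populations was sequenced from 1 library per condition. The authors removed adapter, poly-N and low-quality reads, aligned read pairs to hg38 with HISAT2 2.0.5, counted them per gene with featureCounts 1.5.0-p3 and deposited FPKM; the authors' edgeR results were not used. The annotation release is not given in the sources used here. The table held 0 other columns of values per library.

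Fragments were recovered as FPKM times gene length divided by the smallest such product of the library, and 100% of values came out whole within 0.01. Log2 ratios were computed with 0.1 added to FPKM. Ratios without addition have Clopper-Pearson intervals, levels Poisson intervals, both 95% and for counting error only. The floor for 0 fragments was 3. No test was run and no p-value is given, since each condition has 1 library. The ratio and interval code was tested on simulated data. Overlaps were taken from GENCODE release 44, whose gene ends lay within 141 bases of the file's for the members.

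The members and lists were chosen with earlier results of these data known. From each list, genes at 1 FPKM or more with the 2 largest and 2 smallest log2 ratios and the 2 highest FPKM were named (some fewer where these coincide), besides the members, FKBP9 and genes overlapping them. Of the genes so chosen, 2 are not reported here. AGRN, DUSP6, ETV4, ETV5, KL, KLB, the ESRP genes and some marker genes were named after their values were seen. Protein identities, planned at first, were not computed, because no protein sequences were used here. Alternatives were other added values, median-ratio and TPM scaling, other minimums, fragment shares and sums with overlapping or copied genes; the plain ratio, the depth of 100 fragments and a minimum of 1 TPM were added after the data were seen. Software was scipy 1.17.1, numpy 2.4.6, matplotlib 3.10.9 and pandas 2.3.3 under Python 3.11.15.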

Additional observations from a re-analysis of the deposited data

How the results depend on the processing

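The number of members past 2-fold was 0 with 1 or 0.01 added, with median-ratio or TPM scaling at the minimum of 1 FPKM, without a minimum, with 1 FPKM required in both libraries and among protein-coding genes, and became 2 (FGF1 and FGF5) with nothing added and at least 100 fragments together. It was also 2 after rescaling to TPM with a minimum of 1 TPM, where the log2 ratios of FGF1 and FGF5 were 1.1 and 1.07. Both settings were chosen after the data were seen. The median log2 ratio of the members, 0.28, was 0.032 with 1 added, 0.79 with 0.01 added, 0.65 after rescaling to TPM, 0.47 over the members at 1 FPKM and 0.97 over those with 100 fragments. A larger added value lowers the ratio of genes with few fragments by its construction, and the cause of the other shifts was not tested. With 1 added, the log2 ratios of FGF1, FGF2 and FGF5 were 0.43, 0.74 and 0.45, and with 0.01 added 1.15, 0.99 and 1.12. With the fragments of NUDT6 added, that of FGF2 was 0.79. Of 49 alternative values for single genes and shares, 38 stayed within the counting interval and 11 did not, and 0 changed sign. A value added to both libraries cannot change the sign of a ratio, and shares have no sign. The intervals of FGF7, FGF11, FGF18 and FGFR3 were wide, that of FGF7 running from -3.19 to 6.96 on the log2 scale. The tally is therefore no measure of stability. Levels and shares depend on gene length, as FGF13 held 36.6% of the FGF fragments in shControl but 15.1% of the FPKM. The few fragments of FGF7, FGF11, FGF18, FGFR2, FGFR3 and FGFR4 did not tell the libraries apart, and the loss of fragments shared with overlapping genes, which may touch FGF11, was not tested. No paired analysis was possible because each condition has 1 library.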
